A study of Homo sapiens with 6 samples.

Results

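The epithelial-mesenchymal transition (EMT) factors and the adhesion markers they act on were followed in J82 cells with and without FOXC1 disruption. The 10 genes were taken by name. They were ZEB1, ZEB2, SNAI1, SNAI2, TWIST1 and TWIST2, the core transcription factors of EMT, and CDH1, CDH2, VIM and FN1, the markers most often read as its outcome. All 10 were found among the 57820 genes of the count table, and 7 of them passed the filter on low counts that left 15647 genes for testing. SNAI1, TWIST2 and CDH1 did not pass it and are described by their counts.

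EMT is the process by which cells joined into a sheet loosen their junctions and take on a motile, matrix-producing form. The ZEB and SNAIL zinc finger proteins bind a short DNA sequence called the E-box in the promoters of junction genes and repress them, and CDH1 is their best known target. The TWIST proteins are basic helix-loop-helix factors that pair with E proteins on E-boxes, and cells that pass through EMT typically lose E-cadherin and gain N-cadherin, vimentin and fibronectin.

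J82 is an established human bladder cancer cell line, grown here in DMEM with 10% serum. RNA-seq had been performed on 3 control and 3 KO libraries. FOXC1, a forkhead transcription factor gene, had been targeted with LentiCRISPRv2, a lentiviral Cas9 vector, and the cells were selected with puromycin, while control cells carried a control vector. The study's methods spoke of knockout clones, but whether the 3 libraries of a group came from separate clones, cultures or extractions was not stated, so p-values measure only the spread between these libraries. The groups are called control and KO as labelled.

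Library totals ran from 18408134 to 25350908 counts, and 3 counts, taken as the floor for detecting a gene, amounted to 0.118 to 0.163 CPM, the count scaled to library size. FOXC1 itself was at 18.2 ± 1.21 CPM in control and 22.5 ± 1.5 in KO libraries (SD, n = 3 each). All KO values lay above the control values (log2 fold change 0.30, edgeR adjusted p = 0.0127). A count over the whole gene does not register small insertions or deletions at a guide site, so it did not check the labels. The paper reported less FOXC1 protein in the knockout cells by Western blot. Of the markers used to check the cell type, the epithelial keratins KRT7, KRT8 and KRT18 were abundant. KRT19 was at 74.5 to 145.5 CPM, and EPCAM, also epithelial, at 1.09 to 2.36 CPM. Among fibroblast markers, COL3A1 was at 151.1 to 371.9 CPM and LUM at 42.9 to 57.9 CPM. DCN was at 8.69 to 19.3 CPM and COL1A1 at 1.97 to 12.4 CPM, while PDGFRA had at most 2 counts in a library. Urothelial markers were mixed: UPK3A and KRT20 had at most 2 counts in a library, while PPARG was at 87.8 to 126.8 CPM and GATA3 at 24.3 to 37.6 CPM. The T cell marker CD3E had 0 counts and the monocyte marker CD14 had 78 to 136. The median log2 fold change over all tested genes was -0.00084.

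The E-box was looked for in front of these genes because the ZEB and SNAIL proteins act through it on promoters, their own included. Only the form CACCTG, on either strand, was searched, and other E-box forms were not. RefSeq promoter windows of 250 bases before a transcription start were used for 6 of the 10 genes, 13 windows in all. Each was placed on GRCh37 by exact match. The chromosome of SNAI2 was left out of this search, so no SNAI2 promoter was looked at. No window was used for CDH1, SNAI1 or TWIST1 either, so their promoters were not searched. ZEB1 had 7 of these windows because it has several annotated starts. Of the 13 windows 2 held this form, both before starts of ZEB1. Their 3 matches are shown with CACCTG, or its reverse complement CAGGTG, in capitals. All are written 5′ to 3′ on the plus strand, which is the strand of ZEB1.
ZEB1, chr10:31607277-31607306: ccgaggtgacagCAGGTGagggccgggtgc
ZEB1, chr10:31607895-31607924: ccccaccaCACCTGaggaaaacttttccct
ZEB1, chr10:31608048-31608077: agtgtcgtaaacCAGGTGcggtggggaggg

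The capitals began at positions -242 and -85 from the canonical ZEB1 start in the lower pair of sequences, and at -57 from a start 799 bases away in the top one. The form CACCTG was present on either strand in 6143 of all 35116 windows of the same length (17.5%). So 2 of 13 was no more than the share over all promoters. None of the windows of ZEB2, TWIST2, CDH2, VIM and FN1 held this form, and whether they hold another E-box form was not examined. A forkhead sequence, GTAAACA or ATAAACA on either strand, was present in 2303 of all windows (6.6%) and in none of the 13 windows of these genes. These are matches of letters only, and no binding was measured.

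ZEB1 and SNAI2 transcripts rose in KO cells, VIM was higher by less than the fold threshold, and the other 4 tested genes did not pass the test. A gene was called when its adjusted p in edgeR's quasi-likelihood test was under 0.05 and its fold change was over 1.3. Of the 7 tested genes 2 were called higher and 0 lower, where 7.57% of all tested genes were called higher, 8.39% lower and 16.0% in either direction. DESeq2 called 0 lower as well, and 0 were lower at an unadjusted p under 0.05 in edgeR. The control and KO values did not overlap for 4 of the 7, against 41.3% of all tested genes. Transcripts were measured in bulk, so a change in the share of cells expressing a gene and a change in RNA per cell cannot be told apart.

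**Figure D1:**
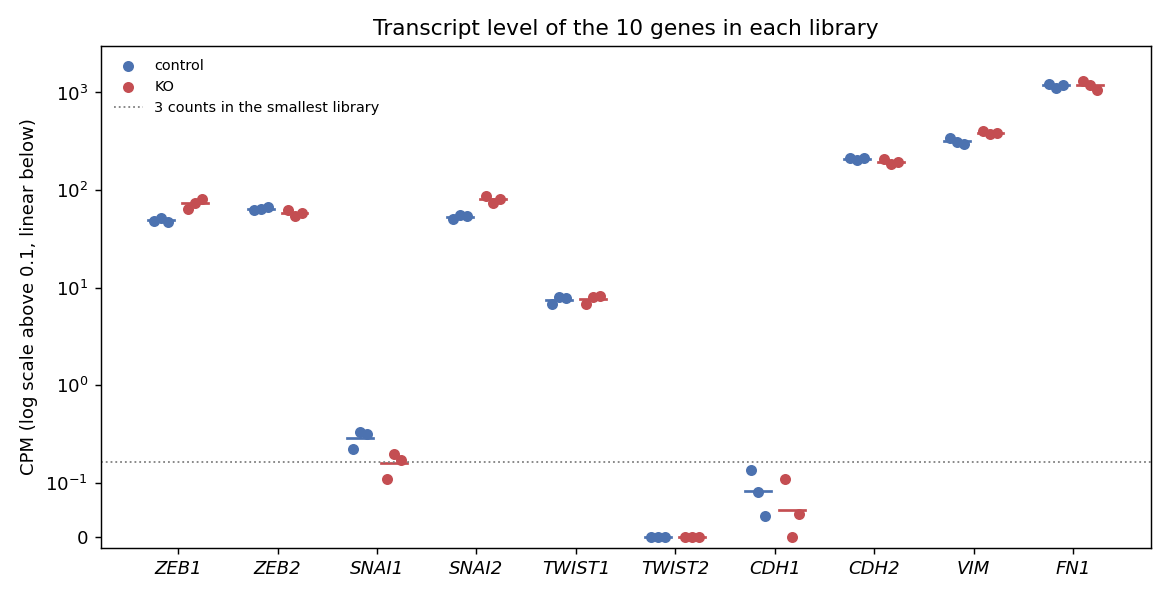
Transcript level of the 10 genes in each library, in CPM on an axis that is logarithmic above 0.1 and linear below. Each point is a library (blue control, red KO, 3 each), each bar a group mean, and the dotted line marks 3 counts in the smallest library. All KO points of ZEB1, SNAI2 and VIM lie above their control points, and CDH1 and TWIST2 lie under the line in every library.

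ZEB1 (ENSG00000148516.17, GRCh37 chr10:31607424-31818742, plus strand) encodes a zinc finger homeobox repressor of epithelial genes. It was at 47.8, 52.2 and 47.4 CPM in control replicates 1 to 3, and at 64.5, 73.0 and 80.9 CPM in KO replicates 1 to 3. Every KO library stood above every control library. The rise was 1.48-fold, a log2 fold change of 0.57 (SE 0.082, 95% interval 0.40 to 0.74, edgeR adjusted p = 3.64e-06). With 3 libraries against 3, the exact two-sided permutation test cannot give a p below 0.1, and it gave this value. ZEB1-AS1, an antisense transcript that shares 396 exonic bases with ZEB1, was at 5.97 ± 0.231 CPM in control and 6.39 ± 0.586 in KO libraries, and the groups overlapped.

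ZEB2 (ENSG00000169554.12, chr2:145121931-145278624, minus strand), the close relative of ZEB1, went the other way in its values. It was at 62.6, 64.5 and 66.2 CPM in control and 61.7, 53.8 and 58.7 CPM in KO libraries. The KO values all lay below the control values, the nearest pair by less than 1 CPM. The log2 fold change of -0.15 (SE 0.076, 95% interval -0.31 to 0.0027) did not pass the test (edgeR adjusted p = 0.133). Within each library, 0.764, 0.809 and 0.716 reads of ZEB1 were counted per read of ZEB2 in control replicates 1 to 3. In KO libraries 1.05, 1.36 and 1.38 were counted, so ZEB1 had the fewer reads in each control library and the more reads in each KO library. This ratio does not depend on how libraries are scaled.

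SNAI2 (ENSG00000019549.4, chr8:49830157-49834299, minus strand), also called SLUG, encodes a SNAIL family repressor. It was at 49.96, 54.95 and 53.9 CPM in control and 87.4, 74.2 and 80.8 CPM in KO libraries. No control library reached the lowest KO library. The rise was 1.52-fold, a log2 fold change of 0.61 (SE 0.078, 95% interval 0.45 to 0.77, edgeR adjusted p = 4.89e-07). KO replicate 1 had the highest SNAI2 level of the KO libraries and the lowest ZEB1 level.

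SNAI1 (ENSG00000124216.3, chr20:48599517-48605423, plus strand), the founding member of the family, was close to the floor. It had 5, 8 and 8 counts in control and 2, 5 and 4 counts in KO libraries, 21 and 11 in sum. Without the filter on low counts its log2 fold change was -0.81 (SE 0.58, edgeR adjusted p = 0.484), so a difference was not detectable at this depth. SNAI2 outnumbered SNAI1 by 168 to 224 reads per read in control libraries and by 375 to 804 in KO libraries.

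TWIST1 (ENSG00000122691.8, chr7:19060614-19157259, minus strand) was at 6.78, 8.07 and 7.78 CPM in control and 6.79, 8.05 and 8.2 CPM in KO libraries. The groups overlapped almost completely. The log2 fold change was 0.032 (SE 0.12, 95% interval -0.21 to 0.27, edgeR adjusted p = 0.872), an interval that stays within the 1.3-fold threshold in both directions. Leaving out control replicate 1, KO replicate 2 or KO replicate 3 turned its sign. TWIST2 (ENSG00000233608.2, chr2:239756673-239832230, plus strand) had 0 counts in all 6 libraries, which allows up to 0.118 to 0.163 CPM depending on the library, for counting error only.

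**Figure D2:**
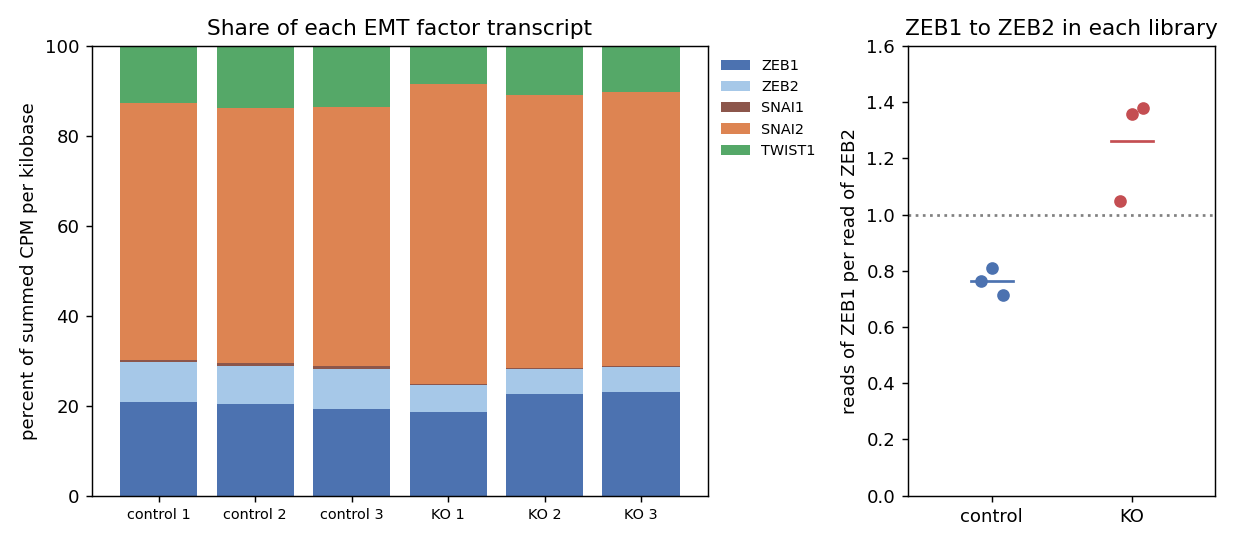
Left, the share of each EMT factor in the summed CPM per kilobase of the 6 factors, one bar per library, in percent. Right, reads of ZEB1 per read of ZEB2 in each library, with group means as bars and equality dotted. SNAI2 is the largest share in every bar, at 57.2% of the sum on average in control and 62.8% in KO libraries. These shares are over merged exons, and over the longest transcript they would be 49.1% and 55.9%. The ZEB1 to ZEB2 ratio lies below 1 in control and above 1 in KO libraries.

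To compare levels between genes, CPM were divided by the length of the merged exons in kilobases. On this scale SNAI2 was the most abundant of the 6 factors, at 16.1 ± 0.800 CPM per kilobase in control and 24.6 ± 1.999 in KO libraries. ZEB1 followed at 5.68 ± 0.307 and 8.42 ± 0.945. TWIST1 was at 3.78 ± 0.340 and 3.85 ± 0.387. ZEB2 had a control level of 2.46 ± 0.0690 and a KO level of 2.22 ± 0.153. The place of ZEB2 depended on the length used, since its merged exons are far longer than any 1 transcript. With the longest transcript in place of merged exons its control level was 6.72 CPM per kilobase and it passed TWIST1 at 4.63.

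The 6 factors summed to 28.2 ± 1.42 CPM per kilobase in control and 39.2 ± 1.69 in KO libraries, 1.39-fold more, and the groups did not overlap. With the longest transcript in place of merged exons the sum was 1.34-fold more in KO libraries. SNAI2 and ZEB1 made up most of the sum in both groups. The size of a share depended on the length used. ZEB2 held 8.74% in control and 5.66% in KO libraries over merged exons, and 17.7% and 11.8% over the longest transcript. The share of ZEB1 was 20.1 ± 0.814% in control and 21.5 ± 2.44% in KO libraries, and the groups overlapped. The share of TWIST1 was 13.4 ± 0.559% in control and 9.83 ± 1.18% in KO libraries. These shares are tied to each other, so a larger share of SNAI2 lowers the share of a gene whose own level is the same.

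CDH1 (ENSG00000039068.14, chr16:68771195-68869440, plus strand), which encodes E-cadherin of the epithelial adherens junction, was at or below the floor in every library. It had 3, 2 and 1 counts in control and 2, 0 and 1 counts in KO libraries. Neither group was above 0.134 CPM in any library, so J82 cells had almost no CDH1 transcript with or without FOXC1 disruption, and no fold change is given.

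CDH2 (ENSG00000170558.4, chr18:25512843-25757910, minus strand), which encodes N-cadherin, was well expressed, unlike CDH1. It was at 212.3, 202.7 and 214.5 CPM in control and 208.9, 182.8 and 191.8 CPM in KO libraries. The highest KO library lay inside the control range. The log2 fold change was -0.11 (SE 0.070, 95% interval -0.25 to 0.033, edgeR adjusted p = 0.251), so a change beyond 1.3-fold lay outside the interval.

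VIM (ENSG00000026025.9, chr10:17270240-17279592, plus strand) encodes vimentin, the intermediate filament protein of mesenchymal cells. It was at 339, 307.7 and 299.1 CPM in control and 400.4, 379.2 and 386 CPM in KO libraries. The lowest KO library stood above the highest control library. The log2 fold change was 0.30 (SE 0.070, 95% interval 0.16 to 0.44) at an edgeR adjusted p of 0.00137. At 1.23-fold it stayed under the 1.3-fold threshold and was not called. VIM-AS1, an antisense transcript that shares 656 exonic bases with VIM, was at 17.4 ± 0.541 CPM in control and 22.5 ± 1.54 in KO libraries. Its 1.29-fold difference was also not called, and without a stated strand setting the reads of the pair cannot be told apart.

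FN1 (ENSG00000115414.14, chr2:216225163-216300796, minus strand), which encodes the matrix protein fibronectin, had the highest read counts of the 10 genes. It was at 1230, 1123 and 1200 CPM in control and 1310, 1200 and 1063 CPM in KO libraries. The KO libraries spanned the whole control range. The log2 fold change was 0.0084 (SE 0.077, 95% interval -0.15 to 0.17, edgeR adjusted p = 0.949). Its sign turned without control replicate 2 and without KO replicate 1.

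**Figure D3:**
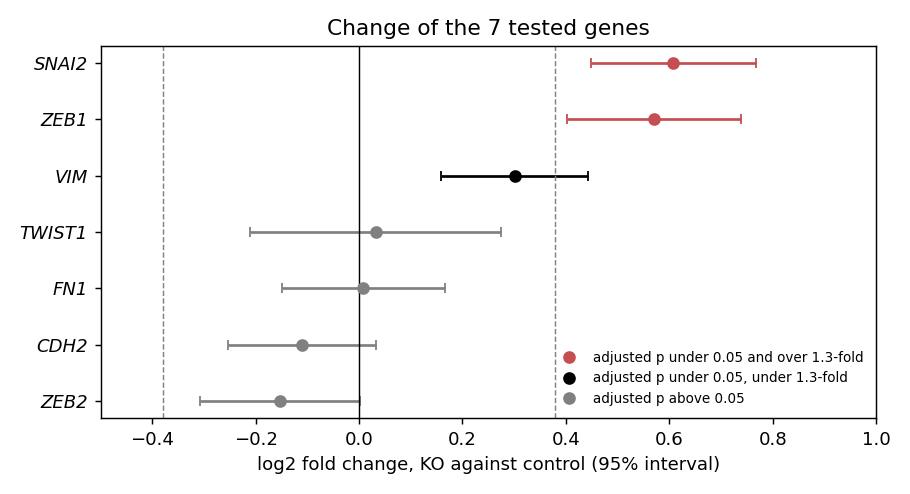
Log2 fold change of KO against control for the 7 tested genes, with 95% intervals from edgeR. Dashed lines mark 1.3-fold in each direction. SNAI2 and ZEB1 (red) have intervals wholly above the upper line, VIM (black) has an interval of 0.16 to 0.44 that spans it, and the intervals of TWIST1, FN1, CDH2 and ZEB2 (grey) include 0.

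**Figure D4:**
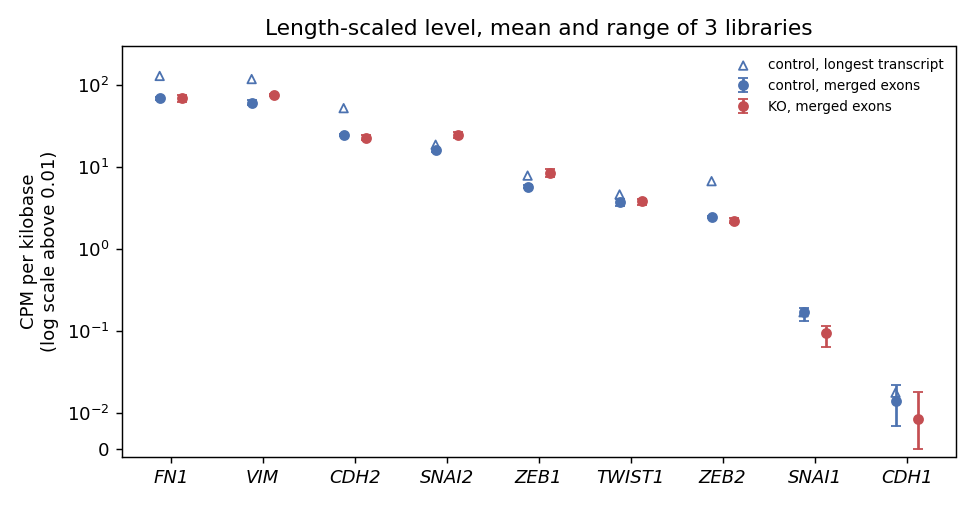
Level of each gene with counts, in CPM per kilobase on an axis that is logarithmic above 0.01. Circles are means over merged exons (blue control, red KO) with the range of 3 libraries, and triangles are control means over the longest transcript. FN1 and VIM are highest, SNAI2 is the highest factor, and SNAI1 and CDH1 are lowest.

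Per kilobase of merged exons, FN1 (68.8 ± 3.19) and VIM (60.9 ± 4.05) headed the order in control libraries, and their ranges touched. CDH2 came next at 24.5 ± 0.732 CPM per kilobase, above SNAI2. The control ranges of all other neighbours in the order were separate, down to SNAI1 at 0.169 and CDH1 at 0.0140 CPM per kilobase. In KO libraries VIM (75.1 ± 2.09) stood before FN1 (69.2 ± 7.20), and SNAI2 (24.6 ± 1.999) before CDH2 (22.7 ± 1.55). The KO ranges of both of these pairs overlapped.

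Among the partners of the EMT factors, genes of the ID family fell. The ID proteins hold E proteins away from DNA and from TWIST1, and 4 of 6 tested genes in a list of E proteins and ID inhibitors were called lower and 0 higher, against 8.39% and 7.57% of all tested genes. DESeq2 also called 0 higher, and 0 were higher at an unadjusted p under 0.05. The number lower was 3 without control replicate 1 or without KO replicate 2. ID1 fell from 61.4 ± 5.04 to 13.4 ± 0.947 CPM (log2 fold change -2.19, edgeR adjusted p = 2.57e-17), and ID3 fell by 2.16 on the log2 scale. The E protein gene TCF4 fell from 21.7 ± 1.01 to 16.5 ± 0.717 CPM. The 4th was ID2, chosen after its values were seen, at 1.06 ± 0.263 CPM in control and 0.234 ± 0.0936 in KO libraries. Its KO libraries had 3, 5 and 8 counts, so it passed the filter on low counts through its control libraries. TCF3 and TCF12, the E protein genes with the most reads, were not called.

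Co-repressors through which SNAIL and ZEB proteins act were called in 0 of 16 tested cases by edgeR and 0 by DESeq2. Over all tested genes edgeR called 8.39% lower and 7.57% higher. At an edgeR unadjusted p under 0.05, with no fold threshold, 3 were lower and 3 higher. The edgeR calls were 1 lower without KO replicate 1 and 1 higher without control replicate 1. KDM1A, the histone demethylase that SNAI1 recruits, was at 356 ± 14.4 CPM in control and 281 ± 12.6 in KO libraries, a log2 fold change of -0.34 (edgeR adjusted p = 0.000286) that stayed under the fold threshold. LOXL2 was at 231 ± 26.01 and 248 ± 20.2 CPM, with overlapping groups. Among 21 tested genes for the turnover of the SNAIL, ZEB and TWIST proteins, 1 was lower and 1 higher (4.76% each). The phosphatase gene CTDSP1 had a log2 fold change of -0.40 and lost its call without control replicate 1, without KO replicate 3 or with every library thinned to the smallest total. The kinase gene PRKD1 rose by 0.56 on the log2 scale.

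Calls among other transcription factors linked to EMT went in both directions. Of 14 tested, HMGA2 was the 1 called higher, from 28.2 ± 2.34 to 48.8 ± 2.39 CPM (log2 fold change 0.79, edgeR adjusted p = 1.57e-08). TBX3 was the 1 called lower (log2 fold change -0.47). Each was 7.14% of the tested list, where 7.57% of all tested genes were called higher and 8.39% lower. Without control replicate 1 the number called lower was 2, and without KO replicate 2 it was 3. The list's median log2 fold change was 0.093, and 4 of the 14 had a value below 0. Of 14 tested genes of the TGF-beta pathway, a main inducer of EMT, 2 were higher (14.3%) and 1 was lower (7.14%). The ligand gene TGFB2 rose from 91.9 ± 4.39 to 152 ± 9.77 CPM, the receptor gene TGFBR1 rose by 0.47 on the log2 scale, and the signal transducer gene SMAD3 fell by 0.48. The number called higher was 1 without control replicate 1.

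The microRNAs of the miR-200 family repress ZEB1 and ZEB2. Libraries of polyadenylated RNA do not measure mature microRNAs, and 6 of 7 gene rows for miR-200, miR-203 and miR-205 transcripts had 0 counts in all libraries. The row with counts did not pass the filter on low counts. Without that filter edgeR called it higher in KO libraries, while DESeq2 called 0 of these rows higher. Its counts were too low for the main test, so no change is read from it.

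Epithelial genes, among them known targets of the EMT factors, were more often called lower than higher in KO cells. Of 38 tested, 16 (42.1%) were called lower and 4 (10.5%) higher, against 8.39% and 7.57% of all tested genes, and the median log2 fold change was -0.30. The tight junction gene CLDN7 fell from 6.17 ± 1.14 to 3.38 ± 0.208 CPM. The epithelial adhesion gene EPCAM fell from 2.09 ± 0.247 to 1.14 ± 0.0775 CPM, the epithelial transcription factor gene ELF3 by 0.87 and the membrane traffic gene MAL2 by 0.81 on the log2 scale. Those that rose included KRT17, a basal keratin (log2 fold change 2.50), CLDN1, a tight junction gene (0.94), and PPL, a plakin (0.60).

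Mesenchymal genes were more often called higher than lower, with 21 of 34 tested (61.8%) called higher and 3 (8.82%) lower. Over all tested genes 7.57% were called higher and 8.39% lower. The median log2 fold change of the mesenchymal list was 0.47. TAGLN, an actin-binding protein of contractile cells, rose from 11.1 ± 0.959 to 74.6 ± 4.38 CPM (log2 fold change 2.75, edgeR adjusted p = 1.38e-19). The matrix genes TNC and POSTN rose from 95.4 ± 1.52 to 357 ± 52.8 CPM and from 6.99 ± 0.142 to 22.4 ± 1.97 CPM. COL1A1, a chain of collagen I, and INHBA, an activin subunit, rose by 2.21 and 1.97 on the log2 scale. The 3 that fell were COL1A2, the other chain of collagen I (log2 fold change -1.34), COL3A1, collagen III (-1.18), and DCN, the proteoglycan decorin (-0.82).

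**Figure D5:**
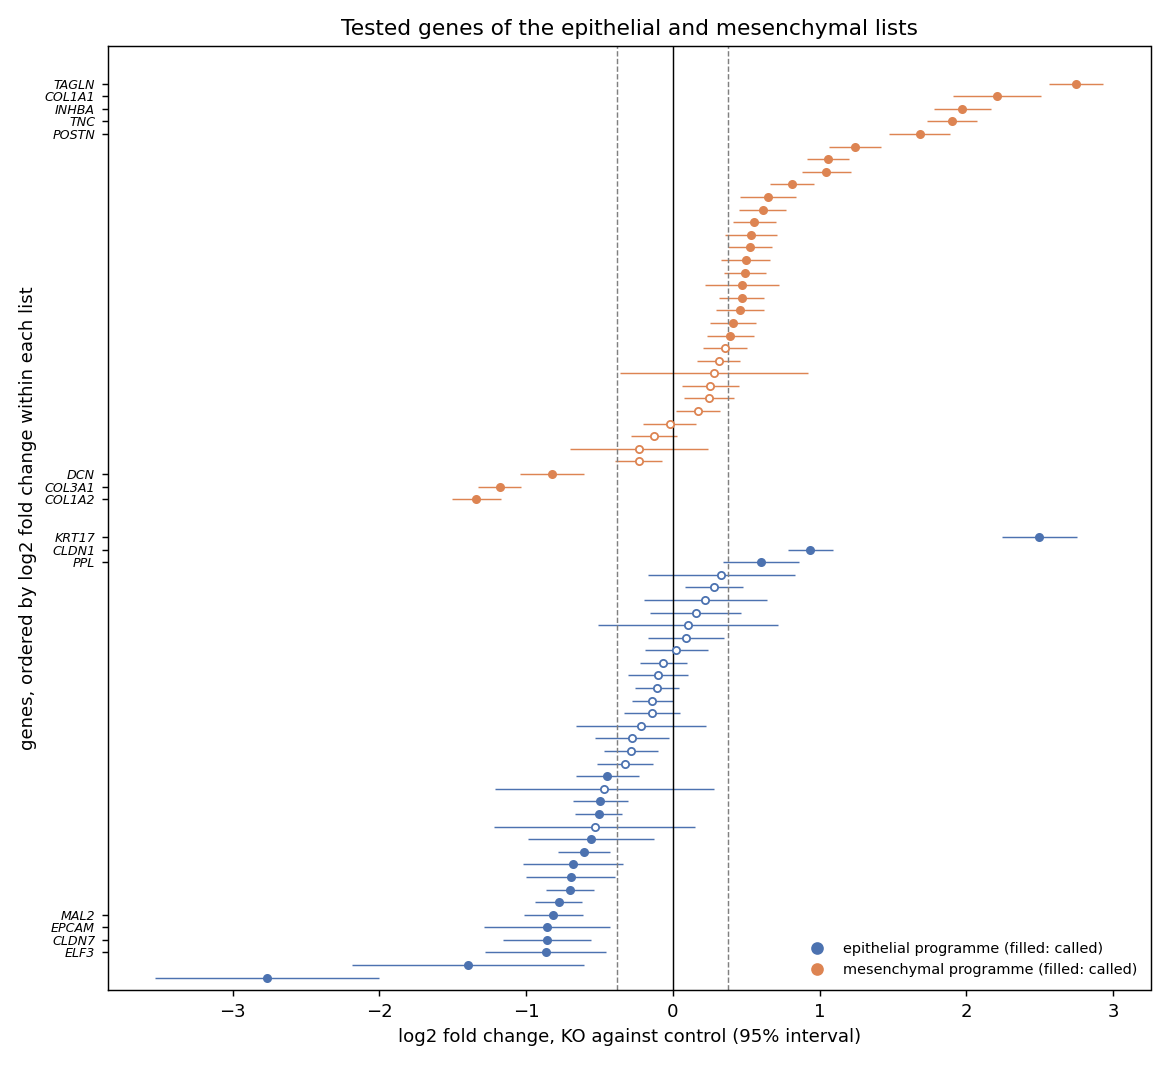
Log2 fold change with 95% interval of the 34 tested mesenchymal genes (orange) and 36 of the tested epithelial genes (blue), ordered by value, with genes named in the text labelled. Filled points were called and dashed lines mark 1.3-fold. Most filled orange points lie to the right of 0 and most filled blue points to the left, with 3 plotted exceptions in each list. Of the epithelial genes not plotted, 1 was called lower and 1 higher.

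Summed levels of cell type markers also differed between the groups. The summed level of the 5 epithelial markers ranged from 3020 to 3841 CPM in control and from 2368 to 2648 in KO libraries. The 9 urothelial markers summed to 158 to 161 CPM in control and 117 to 120 in KO libraries, carried by PPARG and GATA3, which fell by 0.45 and 0.42 on the log2 scale. Only 3 of the 9 urothelial markers were tested, and 2 of these were called lower, where 8.39% of all tested genes were. The number called lower was 1 without KO replicate 1. The 5 fibroblast markers summed to 389 to 444 CPM in control and 221 to 233 in KO libraries, carried by COL3A1, and COL1A1 of the same list rose. PDGFRA, another of them, had no more than 2 counts in a library. The blood markers summed to 3.32 to 4.19 CPM in control and 5.23 to 6.16 in KO libraries, carried by CD14. The endothelial markers summed to 0.590 to 0.901 and 1.55 to 1.90 CPM. Their difference came mainly from CDH5 alone, which had 0 to 26 counts in a library. The part of cell composition in these results was not tested.

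Partners of the 4 adhesion markers were examined last. In the cadherin-catenin complex, 1 of 8 tested genes was called: JUP, plakoglobin of adherens junctions and desmosomes, fell from 20.6 ± 3.17 to 8.27 ± 1.5 CPM (log2 fold change -1.30, edgeR adjusted p = 1.3e-09). JUP alone was 12.5% of the tested list, where 8.39% of all tested genes were called lower. The list's median log2 fold change was -0.0065. Among receptors and assembly factors of fibronectin, 3 of 10 tested genes were higher and 1 lower, against 7.57% and 8.39% of all tested genes. ITGA5 and ITGB1, which form the main fibronectin receptor, rose from 275 ± 38.3 to 367 ± 32.2 CPM and from 950 ± 52.5 to 1253 ± 112 CPM. ITGB3 rose by 0.89 on the log2 scale, and the fibronectin-binding matrix gene FBLN1 fell by 1.10. The number called higher was 1 without KO replicate 1 and 2 to 4 when another library was left out.

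Of 4 tested relatives and linkers of vimentin, 2 were lower and 0 higher in edgeR, against 8.39% and 7.57% of all tested genes. With DESeq2, or at an edgeR unadjusted p under 0.05, 0 were higher. SYNM, a filament protein that assembles with vimentin, fell from 22.9 ± 2.02 to 16.2 ± 1.25 CPM. NEFM, a neurofilament gene, was at 1.81 ± 0.115 and 1.14 ± 0.249 CPM. The number called lower was 1 with DESeq2, with a minimum mean of 50 counts, and without control replicate 2, control replicate 3, KO replicate 1 or KO replicate 2.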

How the data were processed

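Poly(A) RNA-seq of 3 control and 3 KO libraries of J82 was analysed. The deposited values are raw counts of reads, 1 row per gene. The authors had aligned paired 75-base reads to hg19 with STAR and counted them with featureCounts on GENCODE genes. Tool versions and the settings for strand and multi-mapping reads were not stated, so counts of overlapping, antisense and near-identical genes are uncertain. Of the gene identifiers, 55538 (96.05%) matched a GENCODE annotation of GRCh37, which gave symbols, positions and exon lengths. This annotation is later than the one used for counting, so its exon lengths may differ from those counted. Of 243 listed symbols, 238 were found. Of the 12 genes that overlap a member, all but ZEB1-AS1 and VIM-AS1 had at most 14 counts in a library.

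Genes were filtered with filterByExpr, normalized with TMM and tested with the robust quasi-likelihood test of edgeR 4.0.16 (R 4.3.3), with group as the only term and Benjamini-Hochberg adjustment over 15647 genes. The fold threshold of 1.3 follows the study's methods. CPM used TMM-scaled totals and are given as mean ± SD of 3 libraries. The alternatives were DESeq2 1.42.0, other scalings, filters, thresholds and lengths, the replicate number as a block, thinning every library to the smallest total, and leaving out each library. The procedure was tested on simulated data.

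The members and gene lists were chosen with earlier results of these data known. Named were the members, FOXC1, ID3, genes overlapping members, and, from each list, up to 5 called genes per direction with a mean of at least 1 CPM, or the 2 most abundant tested genes where none was called. Genes outside this rule are TCF3, TCF12, ID2, CDH5 and the marker genes. Some genes that this rule would name are not reported here.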

Additional observations from a re-analysis of the deposited data

How the results depend on the processing

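ZEB1 and SNAI2 were called higher under all 13 alternatives with a fitted value, with log2 fold changes of 0.48 to 0.64 and 0.55 to 0.67. VIM had an adjusted p under 0.05 in all 13 and was over 1.3-fold in 0 (0.27 to 0.35). ZEB2 (-0.20 to -0.098) and CDH2 (-0.17 to -0.066) were called in 0 of 13. TWIST1 ranged from -0.044 to 0.10 and FN1 from -0.069 to 0.078 when a library was left out, and FN1 was at -0.0046 with a minimum mean of 50 counts. The deviations of libraries with the same replicate number correlated at -0.050, -0.18 and 0.096, so no pairing by number was seen. Whether control and KO libraries were handled in pairs was not stated. With the replicate number as a block, 1351 genes fell and 1200 rose, and 2 members rose and 0 fell.

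Without a fold threshold 2233 genes were lower and 2372 higher, and above 2-fold 321 and 316. Above 2-fold, 0 members, 8 mesenchymal genes and 1 epithelial gene were higher and 2 epithelial and 2 mesenchymal genes were lower. Leaving out a library gave 14 to 16 epithelial genes lower and 20 to 22 mesenchymal genes higher. Without the filter on low counts, 32156 genes were tested. Depth limits SNAI1, CDH1 and TWIST2, which lie within a few counts of 0.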

Other observations

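Among the marker genes of other cell types, 1 further classical cadherin stood out. CDH5, VE-cadherin of endothelial cells, had 0, 0 and 1 counts in control replicates 1 to 3 and 18, 18 and 26 counts in KO replicates 1 to 3. It was chosen after its values were seen and passed the filter on low counts through its KO libraries, so no test is given, and no fold change because the control libraries were below 3 counts. The endothelial marker VWF had 3 to 7 counts in a library. KDR, the endothelial VEGF receptor, was at 0.529 ± 0.211 CPM in control and 0.483 ± 0.163 in KO libraries. The monocyte marker CD14 rose from 3.52 ± 0.470 to 5.38 ± 0.391 CPM, while PTPRC, the common marker of blood cells, had 3 to 9 counts in a library.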
